A study of Mus musculus with 21 samples.

Results

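The LRRTM family of leucine-rich synapse-organizing proteins, *Lrrtm1*, *Lrrtm2*, *Lrrtm3* and *Lrrtm4*, and *Ctnna2*, the gene inside which *Lrrtm1* lies, were followed through 21 arrays of the mouse dentate gyrus. Members were every probe set that carried 1 of these 5 gene symbols, 13 of 45037 on the array, and their 5 genes were among 18193 with such a probe set. There were 3 probe sets for *Lrrtm1*, 3 for *Lrrtm2*, 4 for *Lrrtm3*, 2 for *Lrrtm4* and 1 for *Ctnna2*. *Lrrtm1* was chosen by its difference between bitransgenic and monotransgenic mice in these same arrays, so those differences are given for it as a description with no test. The other 4 genes were taken for their family or their place on the chromosome. All 13 probe sets lay in the upper 60% of probe sets by mean level, the 27022 that were tested.

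The study overexpressed NgR, the Nogo receptor encoded by *Rtn4r*, in the forebrain of mice. Bitransgenic mice carried an NgR transgene and the transactivator tTA, which switches it on unless doxycycline is given, and monotransgenic mice carried that transgene and lacked tTA. Set 1 held bitransgenic mice on water after doxycycline was removed (transgene on), bitransgenic mice kept on a doxycycline diet (transgene off) and monotransgenic mice on water, also with doxycycline removed. Experiment 2 held bitransgenic mice on water that had never been given doxycycline (on) and monotransgenic mice on water, and set 3 held bitransgenic and monotransgenic mice with no treatment named. Each of the 7 groups had 3 arrays of total RNA. The labels do not give the promoter behind tTA, the age or the strain, and apart from sample numbers nothing ties the arrays to separate animals. The p-values therefore reflect spread between the arrays, which may be technical.

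LRRTM proteins sit in the postsynaptic membrane of excitatory synapses and bind partners on the axon across the cleft. LRRTM1 and LRRTM2 bind neurexins, while LRRTM3 and LRRTM4 bind the heparan sulfate chains of glypicans, syndecans and neurexins. In the hippocampus LRRTM4 is known for its strong expression in the dentate gyrus. *Ctnna2* codes for alpha-N-catenin, which ties cadherin adhesion complexes of neurons to actin. In the RefSeq gene table *Lrrtm1* stood on the plus strand of chromosome 6 inside *Ctnna2*, which runs on the minus strand. *Lrrtm3* lay in the same way inside *Ctnna3* on chromosome 10 and *Lrrtm2* inside *Ctnna1*, while *Lrrtm4* had no such host and lay 7 protein-coding genes away from *Lrrtm1*.

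The start regions of *Lrrtm1* and *Ctnna2* are shown because these genes share a locus and their group means differed in opposite directions. Each run holds the 250 bases before and 50 bases after a RefSeq start, on the strand of its gene, at chr6:77242227-77242526 (plus strand) and chr6:77979618-77979917 (minus strand) of GRCm38.p6, with GC boxes (GGGCGG or its reverse CCGCCC) in capitals.
Lrrtm1: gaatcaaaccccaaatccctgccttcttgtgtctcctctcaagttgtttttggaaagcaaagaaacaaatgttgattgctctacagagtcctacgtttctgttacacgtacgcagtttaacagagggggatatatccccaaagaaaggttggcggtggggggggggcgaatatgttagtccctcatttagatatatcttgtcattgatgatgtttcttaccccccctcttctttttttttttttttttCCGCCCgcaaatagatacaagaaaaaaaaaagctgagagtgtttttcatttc
Ctnna2: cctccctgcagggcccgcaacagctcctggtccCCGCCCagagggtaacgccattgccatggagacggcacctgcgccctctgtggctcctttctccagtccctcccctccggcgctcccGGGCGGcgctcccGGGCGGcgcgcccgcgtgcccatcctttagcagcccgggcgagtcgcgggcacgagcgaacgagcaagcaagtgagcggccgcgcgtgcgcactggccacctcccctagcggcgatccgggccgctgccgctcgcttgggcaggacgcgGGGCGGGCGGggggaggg
The *Lrrtm1* run was 40.7% G or C with 1 GC box, and the *Ctnna2* run 75.3% with 5, of which 2 overlap. The median over 32851 promoters was 52.7% and 35.7% of them held a GC box. Neither run held a CRE (TGACGTCA), its shorter form TGACG, an E-box (CACGTG) or a TATA box (TATAAA) on either strand, motifs found in 1.79%, 20.8%, 7.15% and 13.6% of promoters.

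The labels were first checked on *Rtn4r*. Its deposited intensity was 1469, 329 and 254 after doxycycline removal, 111, 87.0 and 73.1 on the doxycycline diet and 63.8, 98.4 and 79.0 in set 1 monotransgenic mice. Intensities were 605, 365 and 753 in bitransgenic against 113, 185 and 123 in monotransgenic arrays of experiment 2, and 672, 755 and 562 against 133, 112 and 85.9 in set 3. The 9 arrays of the removed and other bitransgenic groups, from 254 up, were above all 12 diet and monotransgenic arrays, at 185 or less, including set 3, where the labels do not say that the transgene was on. The arrays correlated at 0.943 to 0.988 with no identical pair. All 10 dentate granule cell markers sought were above the level filter, with a summed intensity of 15988 to 25817 over the 21 arrays. The actin 3' to 5' log2 ratio, a sign of RNA quality, was 4.63 to 5.12 in set 1, 4.84 to 6.45 in experiment 2 and 4.17 to 4.63 in set 3. In these samples of tissue, fewer cells of a type and less RNA per cell cannot be told apart.

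*Lrrtm1*, an organizer of excitatory synapses, averaged higher in removed and in experiment 2 and set 3 bitransgenic arrays than in monotransgenic arrays of the same set. This held on all 3 of its probe sets. On probe set 1455883_a_at, the brightest, its intensity was 2516, 3965 and 3631 after doxycycline removal, 1527, 1403 and 1468 on the doxycycline diet and 1401, 1446 and 1330 in set 1 monotransgenic mice. In experiment 2 it was 4282, 2869 and 3782 in bitransgenic against 762, 813 and 1470 in monotransgenic arrays. In set 3 it was 3007, 2356 and 3297 in bitransgenic against 1439, 848 and 1313 in monotransgenic arrays. Every array of the removed and the experiment 2 and set 3 bitransgenic groups lay above every array of the diet group and of the monotransgenic groups, with nothing between 1527 and 2356.

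The means fell into 2 tiers. The upper tier held experiment 2 bitransgenic (3644 ± 716), removed (3371 ± 759) and set 3 bitransgenic (2887 ± 482) arrays, and neighbours in that order overlapped. The lower tier held diet (1466 ± 62.4), set 1 monotransgenic (1392 ± 58.3), set 3 monotransgenic (1200 ± 311) and experiment 2 monotransgenic (1015 ± 395; SD, n = 3 each) arrays, again with overlap between neighbours. The groups on each side of the gap did not overlap. In log2 units of normalized values *Lrrtm1* was 1.20 ± 0.23 higher in removed than in set 1 monotransgenic arrays (standard error, 2.30-fold), 1.69 ± 0.23 higher in experiment 2 (3.24-fold) and 1.34 ± 0.23 higher in set 3 (2.53-fold). The mean of the 3 differences was 1.41 ± 0.13. These are the values that chose the gene.

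**Figure D1:**
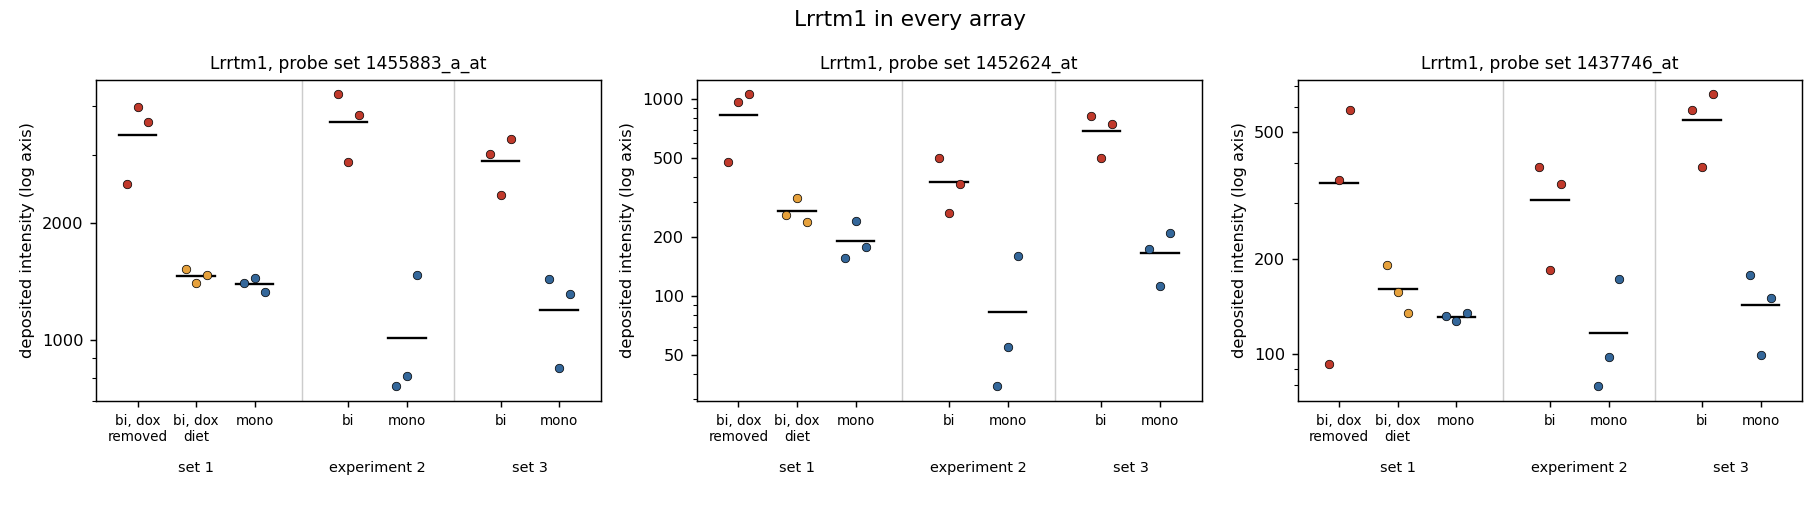
Deposited intensity (log axis) of the 3 *Lrrtm1* probe sets in each of 21 arrays (points) with the mean of each group (line), by set. On 1455883_a_at all 9 arrays of the removed and the experiment 2 and set 3 bitransgenic groups lie at 2356 or higher and the other 12 at 1527 or lower, while on 1437746_at removed replicate 1 stands at 93.0, under every array of the diet group.

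The dimmer probe sets moved with it across arrays (r of 0.98 for 1452624_at and 0.90 for 1437746_at with 1455883_a_at over 21 arrays, set means taken off, with the groups shared), although not with the same size. Probe set 1452624_at read 479, 966 and 1058 after removal, 257, 316 and 238 on doxycycline and 155, 239 and 177 in set 1 monotransgenic arrays. It read 504, 265 and 371 in bitransgenic against 34.8, 54.9 and 159 in monotransgenic arrays of experiment 2, and 819, 505 and 745 against 174, 113 and 209.5 in set 3. Its bitransgenic minus monotransgenic differences were 1.98, 2.33 and 2.01 log2 units in the 3 sets, with a mean of 2.11 ± 0.21 and no overlap of the groups in any of them. The experiment 2 difference was 1.765 with a pseudocount of 64 in place of 16, and 2.87 without monotransgenic replicate 3. The third probe set, 1437746_at, read 93.0, 353 and 589 after removal, 191, 158 and 135 on doxycycline and 132, 127 and 135 in set 1 monotransgenic arrays, so that here the removed arrays spanned both of the other groups. In experiment 2 it read 388, 184 and 343 in bitransgenic against 79.3, 98.0 and 173 in monotransgenic arrays, and in set 3 it read 586, 389 and 657 against 177, 99.7 and 150.5. Its differences were 1.00 ± 0.40 in set 1, or 1.68 ± 0.31 without removed replicate 1 and 0.48 ± 0.38 without removed replicate 3, and 1.41 ± 0.23 as the mean of the 3 sets.

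Within the bitransgenic mice *Lrrtm1* was higher after doxycycline removal than on the diet. The removed arrays are among those that chose the gene, so this difference too is given as a description with no test. It was 1.11 ± 0.23 log2 units on 1455883_a_at (2.16-fold, no overlap), 1.51 ± 0.37 on 1452624_at (2.84-fold, no overlap) and 0.75 ± 0.40 on 1437746_at (overlap). The last was 1.43 ± 0.31 without removed replicate 1 and 0.23 ± 0.38 without removed replicate 3. With the transgene held off, the diet arrays were set against the monotransgenic arrays, which also took part in the choice of the gene. They were 0.09 ± 0.23 log2 units higher on 1455883_a_at (95% interval −0.39 to 0.57), 0.48 ± 0.37 on 1452624_at (−0.29 to 1.24) and 0.25 ± 0.40 on 1437746_at (−0.59 to 1.09). On 1437746_at the diet arrays lay just above the monotransgenic arrays without overlap, at 134.97 to 191 against 127 to 134.83.

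The size of the *Lrrtm1* difference is compared between sets as a description with no test, since it is built from the values that chose the gene. On 1455883_a_at experiment 2 exceeded set 1 by 0.49 ± 0.33 log2 units (95% interval −0.19 to 1.17). Set 3 exceeded set 1 by 0.13 ± 0.33 and was lower than experiment 2 by 0.36 (−1.04 to 0.32). The intervals of the comparisons with experiment 2 are wide enough to hold a difference of 1 log2 unit. That of set 3 minus set 1 was −0.55 to 0.81. Of the 10 probe sets of the other 4 genes, 0 passed in limma in each of the 3 differences between sets (lowest adjusted p = 0.523). Of all probe sets 0.0074%, 0% and 0.0074% passed for experiment 2 minus set 1, set 3 minus set 1 and set 3 minus experiment 2.

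Arrays of set 3 carry a title prefix, whose meaning the labels do not give, and 2 prefixes hold an array of each genotype. Under the first *Lrrtm1* read 3007 in the bitransgenic and 848 in the monotransgenic array, and under the other 3297 against 1313, on 1455883_a_at. With the prefix as a block the difference rests on these 2 pairs alone and was 1.62 ± 0.28. *Ctnna2* read 131 against 202 and 80.4 against 133 in the same pairs, and its difference with the block was −0.58 ± 0.34. The monotransgenic and the bitransgenic array outside the pairs, at 83.4 and 84.7 for *Ctnna2*, do not enter that difference, which was −0.37 ± 0.30 without the block. For *Lrrtm1* these arrays read 1439 and 2356, and its difference without the block was 1.34 ± 0.23.

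Array by array, *Lrrtm1* and *Rtn4r* were both high in the same groups (r = 0.79 over 21 arrays, set means taken off, which restates the groups), but their order within a group was not shared. Removed replicate 1 had the highest *Rtn4r* intensity of all arrays, 1469, and the lowest *Lrrtm1* intensity of its group, 2516. In set 3 the bitransgenic array of highest *Rtn4r* (755) had the lowest *Lrrtm1* (2356), while in experiment 2 the lowest *Rtn4r* (365) and the lowest *Lrrtm1* (2869) fell in the same array. That array also had the highest actin ratio of the series, 6.45. The part of RNA quality in these values was not tested.

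**Figure D2:**
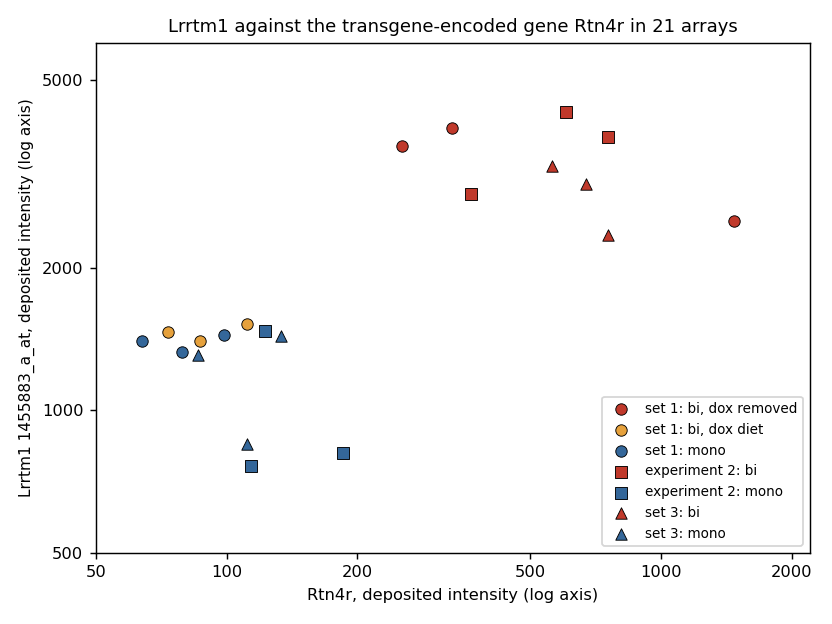
Intensity of *Lrrtm1* (1455883_a_at, vertical) against *Rtn4r* (1419732_at, horizontal), both on log axes, in each of 21 arrays, with colour for genotype and doxycycline and shape for the set. The 9 arrays of the removed and other bitransgenic groups form a cloud apart from the 12 diet and monotransgenic arrays, and removed replicate 1 lies at the far right at 1469 for *Rtn4r* and 2516 for *Lrrtm1*.

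*Ctnna2*, the host of *Lrrtm1*, averaged lower in the bitransgenic than in the monotransgenic arrays of every set, the opposite direction to *Lrrtm1*. Its intensity was 85.2, 77.7 and 90.5 after removal, 103, 102 and 122 on doxycycline and 210.4, 209.8 and 229.6 in set 1 monotransgenic arrays. It was 99.7, 114 and 147 in bitransgenic against 244, 241 and 90.6 in monotransgenic arrays of experiment 2, and 131, 84.7 and 80.4 against 83.4, 202 and 133 in set 3. In set 1 the 3 groups stood apart from each other without overlap. In experiment 2 the monotransgenic array at 90.6 lay under every bitransgenic array, against the direction of the means. In set 3 the monotransgenic array at 83.4 lay among the bitransgenic arrays.

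In set 1 *Ctnna2* was 1.16 ± 0.30 log2 units lower in removed than in monotransgenic arrays (a difference of −1.16, limma adjusted p = 0.234, unadjusted p = 0.000964) and 0.90 ± 0.30 lower on the diet (−0.90, adjusted p = 1, unadjusted p = 0.0074), 2 comparisons that share the monotransgenic arrays. Removed minus diet was −0.26 ± 0.30 (95% interval −0.90 to 0.37). On doxycycline, where *Lrrtm1* averaged 1466 against 1392 in monotransgenic arrays, *Ctnna2* averaged 109 ± 11.4 against 217 ± 11.3 (SD, n = 3 each). The mean over the 3 sets was −0.65 ± 0.18 (limma adjusted p = 0.118). Its exact permutation p, two-sided and not adjusted, was 0.016 over 8000 relabelings within sets. The difference was −0.42 ± 0.30 in experiment 2 (limma adjusted p = 0.512) and −0.37 ± 0.30 in set 3 (adjusted p = 1). Single arrays moved both smaller differences. Experiment 2 gave −0.88 without monotransgenic replicate 3, −0.15 without monotransgenic replicate 1, −0.22 without monotransgenic replicate 2 and −0.26 without bitransgenic replicate 1, and set 3 gave −0.66 without monotransgenic replicate 1 and −0.08 without monotransgenic replicate 2. With array weights the experiment 2 difference was −0.02. Fitted on set 1 alone, removed and diet against monotransgenic passed at the same sizes (adjusted p = 0.000646 and 0.0191), over ranges of 0.000646 to 0.645 and 0.0191 to 1 in 15 alternatives each. Without monotransgenic replicate 3 of experiment 2 the mean was −0.80 (adjusted p = 0.0278, range 0.0278 to 0.513 over 29 alternatives).

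Markers of the meninges had lower summed means in the same groups as *Ctnna2*, without the same order of single arrays. The summed intensity of the 4 of 6 meningeal markers above the filter was 57.5 to 94.1 after removal, 81.7 to 109 on doxycycline and 703 to 862 in set 1 monotransgenic arrays. It was 83.4 to 137 in bitransgenic against 149.5 to 585 in monotransgenic arrays of experiment 2, without overlap, and 76.9 to 199.6 against 83.0 to 949.6 in set 3. Of the 4 markers 1 was higher and 3 were lower over the 3 sets (median −0.29), and 2 and 2 in experiment 2. *Ogn*, a small proteoglycan of connective tissue, was the marker that passed, at −4.16 ± 0.72 in removed minus monotransgenic (limma adjusted p = 0.0338) and −2.61 ± 0.42 over the 3 sets (adjusted p = 0.0176). Monotransgenic replicate 3 of experiment 2, low in *Ctnna2* at 90.6, had a meningeal sum of 585, the highest of its group. Replicate 2 of the monotransgenic arrays of set 3, high in *Ctnna2* at 202, had the lowest sum of its group, 83.0. For *Lrrtm1* on 1455883_a_at these arrays read 1470 and 848, the highest and the lowest of their groups. In the diet and the set 3 bitransgenic groups the array of highest meningeal sum instead had the lowest *Lrrtm1*. Dentate granule cell markers summed to 17217 to 21350 after removal, 19313 to 20429 on doxycycline and 21584 to 24559 in set 1 monotransgenic arrays. Over the 3 sets 9 of 10 were lower (median −0.21, none past the threshold), against 48.4% of all genes. Inhibitory neuron (8 of 8), oligodendrocyte (4 of 4), astrocyte (4 of 5) and thalamus (3 of 4) markers were also mostly lower. Lower counts were more even for CA1 (2 of 5), CA3, CA2 and mossy cell (4 of 8), neocortex (3 of 7), microglia (3 of 5), endothelial (1 of 3) and choroid plexus (1 of 2) markers. The part of cell composition in the differences was not tested.

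**Figure D3:**
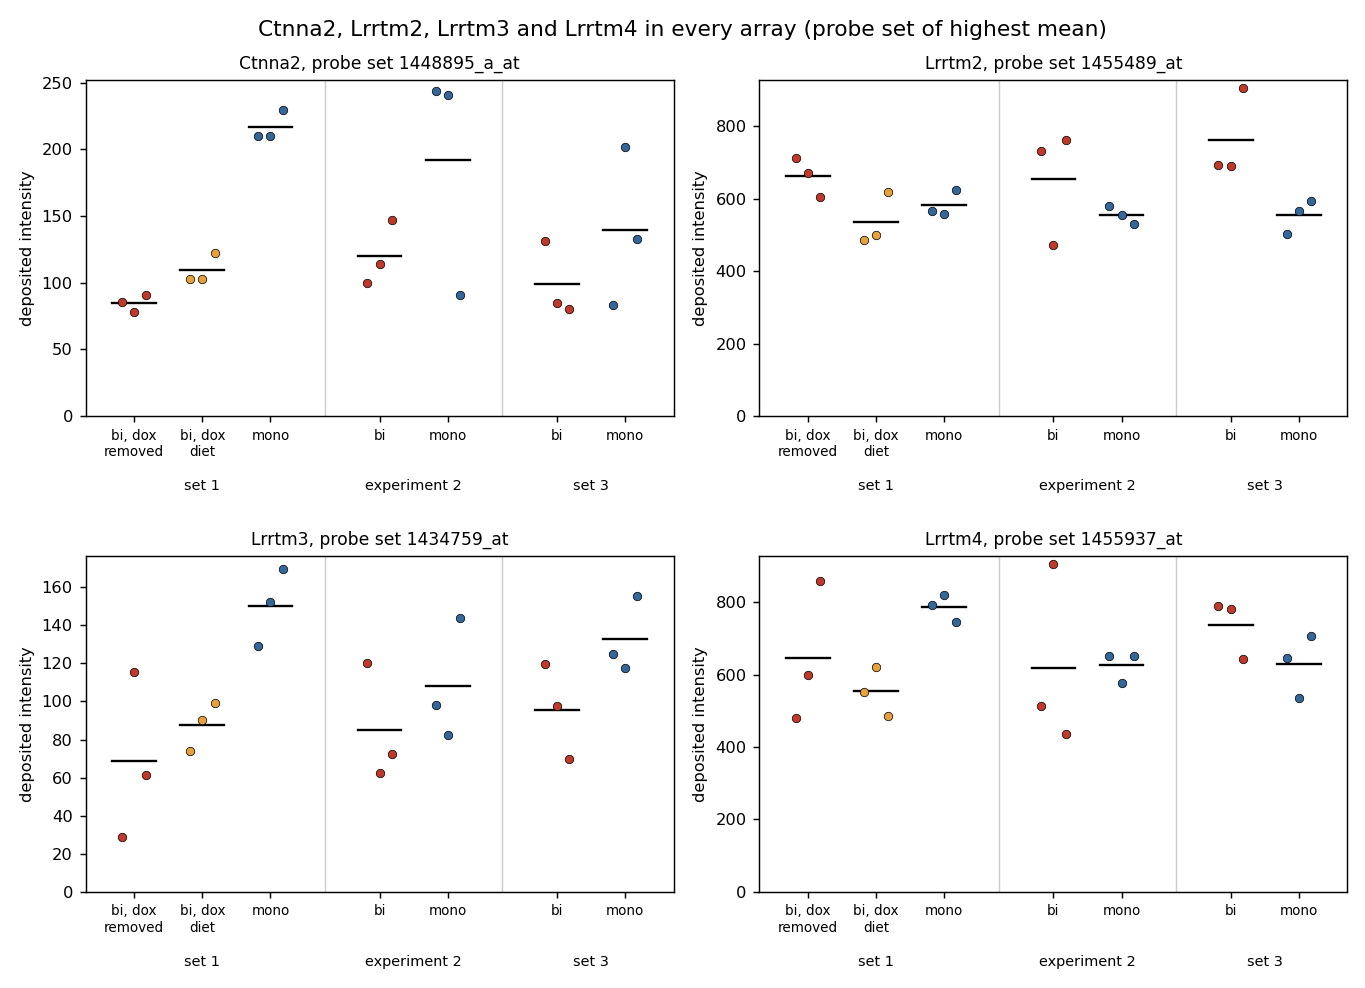
Deposited intensity (axes from 0) of *Ctnna2*, *Lrrtm2*, *Lrrtm3* and *Lrrtm4*, each on its probe set of highest mean, in 21 arrays (points) with the group mean (line). *Ctnna2* separates the 3 groups of set 1 (77.7 to 90.5, 102 to 122 and 210 to 230), *Lrrtm2* does not overlap in set 3 alone, and *Lrrtm4* shows no order of bitransgenic and monotransgenic arrays that holds in all 3 sets.

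*Lrrtm2* codes for another neurexin-binding synapse organizer. On its brightest probe set it averaged higher in removed and in experiment 2 and set 3 bitransgenic arrays than in monotransgenic arrays of the same set, while its diet group had the lowest mean of the 7. On that probe set, 1455489_at, it read 713, 670.3 and 604 after removal, 486, 498 and 619 on doxycycline and 566, 556 and 624 in set 1 monotransgenic arrays. It read 732, 471 and 762 in bitransgenic against 580.5, 555 and 529 in monotransgenic arrays of experiment 2, and 692, 689 and 906 against 503, 566 and 595 in set 3. The groups overlapped in every comparison except that of set 3. The difference there was 0.44 ± 0.16 log2 units (limma adjusted p = 1, unadjusted p = 0.013). The mean over the 3 sets was 0.26 ± 0.09 (1.20-fold, limma adjusted p = 0.251, unadjusted exact permutation p = 0.0115, two-sided). With array weights that mean passed (0.31, adjusted p = 0.0331), the only one of 29 alternatives to do so (range 0.0331 to 0.513).

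Probe set 1437787_at of *Lrrtm2* read 191, 220.3 and 209 after removal against 134, 117 and 135 on the diet, without overlap (0.65 ± 0.24, limma adjusted p = 0.923). Against the monotransgenic arrays, at 146, 126 and 183, the removed arrays were 0.45 ± 0.24 higher (adjusted p = 0.789). In experiment 2 it read 169.6, 274 and 172 in bitransgenic against 302, 152 and 229.9 in monotransgenic arrays, a difference of −0.05 ± 0.24 with the opposite sign of the first probe set. In set 3 it read 230.2, 163 and 234 against 142, 165 and 194. The third probe set, 1456637_at, was dim at 7.5 to 41.7 in all arrays. The 3 probe sets of *Lrrtm2* followed each other loosely, with r of 0.05 to 0.45 over 21 arrays against 0.90 to 0.98 for *Lrrtm1*. *Ctnna1*, the widely expressed alpha-catenin gene that hosts *Lrrtm2*, differed by 0.12 ± 0.09 over the 3 sets (limma adjusted p = 0.655).

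*Lrrtm3*, which codes for a heparan sulfate binding member, averaged lower in bitransgenic than in monotransgenic arrays of every set on 3 of its 4 probe sets. On 1434759_at it read 28.6, 115 and 61.5 after removal, 74.0, 90.3 and 99.0 on doxycycline and 129, 152 and 169.6 in set 1 monotransgenic arrays. It read 120.5, 62.4 and 72.6 in bitransgenic against 98.1, 82.3 and 144 in monotransgenic arrays of experiment 2, and 119.7, 97.5 and 70.0 against 125, 118 and 156 in set 3. In set 1 every bitransgenic array, on or off doxycycline, lay under every monotransgenic array, while the groups overlapped in the other sets.

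The removed minus monotransgenic difference of *Lrrtm3* was −1.06 ± 0.29 log2 units (limma adjusted p = 0.260, unadjusted p = 0.0013) and the diet minus monotransgenic difference −0.68 ± 0.29 (adjusted p = 1, unadjusted p = 0.026). It was −0.16 ± 0.29 in experiment 2, −0.40 ± 0.29 in set 3 and −0.54 ± 0.16 over the 3 sets (limma adjusted p = 0.162, unadjusted exact permutation p = 0.014, two-sided). Probe set 1434760_at read 43.7, 83.0 and 70.2 after removal, 88.1, 88.8 and 78.5 on doxycycline and 115, 113 and 129 in set 1 monotransgenic arrays, and its mean difference was −0.51 ± 0.15 (adjusted p = 0.159). It passed at −0.65 without monotransgenic replicate 2 of experiment 2 (adjusted p = 0.0239) and at −0.59 with array weights (adjusted p = 0.0148), the only alternatives of 28 to do so (range 0.0148 to 0.422). Probe set 1440112_at was dimmer, at 17.6 ± 5.81 after removal against 40.6 ± 8.27 in set 1 monotransgenic arrays (SD, n = 3 each), with a mean difference of −0.44 ± 0.14 (adjusted p = 0.179). These 3 probe sets correlated at 0.47 to 0.71 over 21 arrays. The fourth, 1434761_at, stayed at 7.8 to 41.8, correlated with the others at −0.01 to 0.20 and had a mean difference of −0.02, with 0.18 ± 0.25 in experiment 2. *Ctnna3*, the host of *Lrrtm3*, lay under the level filter.

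*Lrrtm4*, the member known for the dentate gyrus, had no direction that held in all 3 sets on either probe set. On 1455937_at it read 479, 599 and 859 after removal, 553, 621 and 486 on doxycycline and 793, 821 and 745 in set 1 monotransgenic arrays. It read 514, 905 and 435 in bitransgenic against 650.4, 577 and 652 in monotransgenic arrays of experiment 2, and 789, 779.9 and 642 against 646, 536 and 705 in set 3. Only the diet and monotransgenic arrays of set 1 did not overlap (−0.51 ± 0.21 log2 units, limma adjusted p = 1, unadjusted p = 0.0228). The mean over the 3 sets was −0.08 ± 0.12 (95% interval −0.33 to 0.17, limma adjusted p = 0.834, unadjusted exact permutation p = 0.564, two-sided).

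The other *Lrrtm4* probe set, 1437214_at, read 471, 656 and 665 after removal, 387, 444 and 352 on doxycycline and 646, 721 and 558 in set 1 monotransgenic arrays. The diet arrays were thus the lowest of set 1 on both *Lrrtm4* probe sets by their means, at −0.68 ± 0.25 against monotransgenic (limma adjusted p = 1, unadjusted p = 0.0129) and with removed minus diet at 0.57 ± 0.25 (adjusted p = 1) on this one. In experiment 2 bitransgenic replicate 2 stood at 1369 with the others at 764 and 634, against 509, 525 and 935 in monotransgenic arrays. Without that array and the other one of high actin ratio the difference was −0.03, with all arrays 0.39 ± 0.25. In set 3 it read 536, 477 and 403 against 609, 395 and 688, and the mean over the 3 sets was 0.01 ± 0.14.

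**Figure D4:**
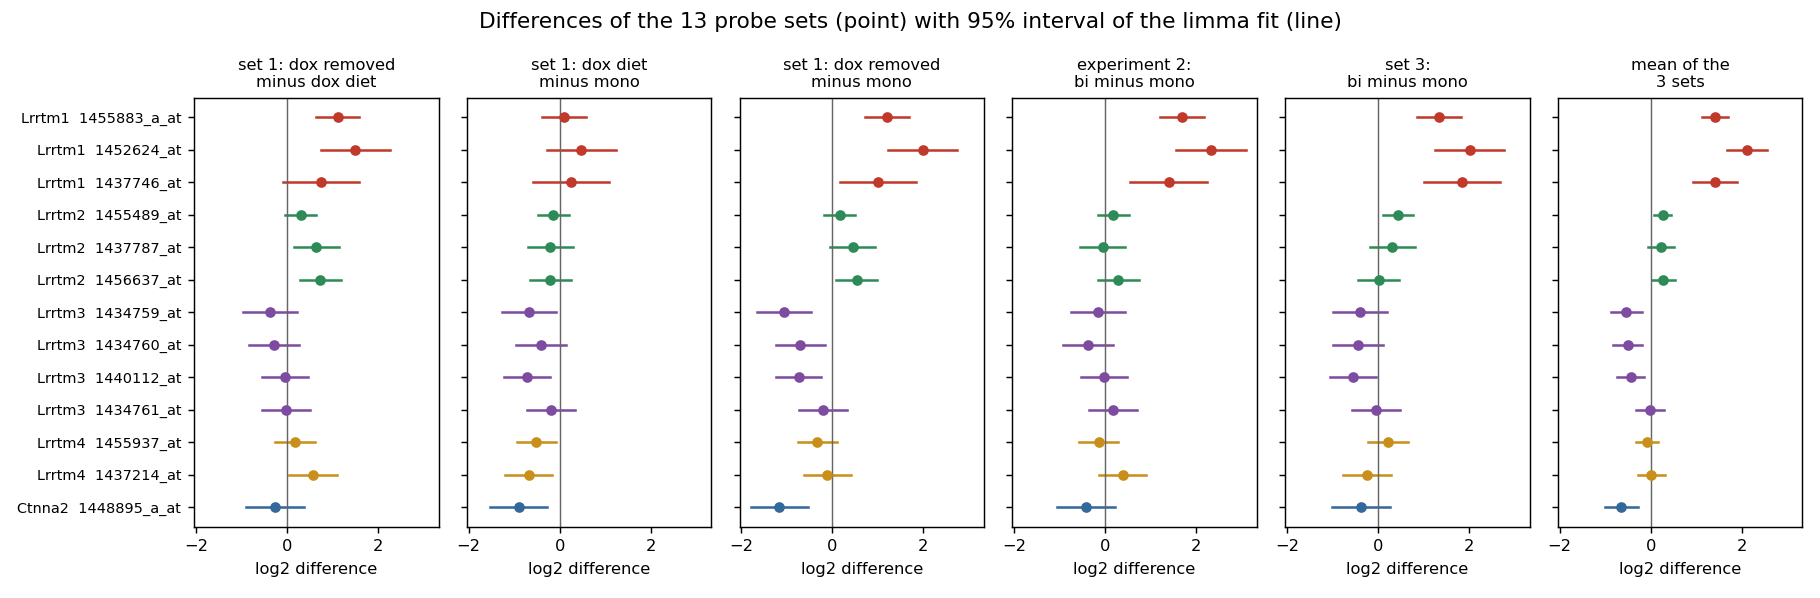
Log2 difference (horizontal, normalized values) of each of the 13 probe sets (rows, coloured by gene) in 6 comparisons, with the 95% interval of the limma fit as a line. The *Lrrtm1* probe sets lie at 1.00 to 2.33 in the 3 comparisons of removed, experiment 2 and set 3 bitransgenic with monotransgenic arrays. They lie at 0.09 to 0.48 in diet minus monotransgenic, where all 10 other probe sets lie left of 0.

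Counted over the 10 probe sets of *Lrrtm2*, *Lrrtm3*, *Lrrtm4* and *Ctnna2*, 0 passed an adjusted p of 0.05 in limma in any of the 6 comparisons. The share of all 27022 probe sets that passed was 0.0185% in removed minus diet, 0.0037% in diet minus monotransgenic, 0.0333% in removed minus monotransgenic, 0.311% in experiment 2, 0% in set 3 and 0.0703% over the 3 sets. At an unadjusted p under 0.05 there were 3 of 10 in removed minus diet, 5 in diet minus monotransgenic and 5 in removed minus monotransgenic, against 4.72%, 3.75% and 6.86% of all probe sets. There were 0 in experiment 2, 2 in set 3 and 6 over the 3 sets, against 15.9%, 4.63% and 11.8%. Probe sets of 1 gene read the same RNA and are no independent counts.

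The groups did not overlap for 3 of the 10 in removed minus diet, 5 in diet minus monotransgenic, 5 in removed minus monotransgenic, 0 in experiment 2 and 3 in set 3, where 16%, 13.3%, 18.8%, 12.4% and 13.6% of all probe sets did not. In diet minus monotransgenic all 10 were lower, with a median of −0.46 against 0.0031 over all probe sets, and the 3 *Lrrtm1* probe sets were higher. In experiment 2 the median of the 10 was −0.04 against 0.0108 over all probe sets.

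The binding partners of the family were read from a list of neurexins, glypicans and syndecans, of which 9 of 13 were above the filter. Over the 3 sets 0 of 9 passed in limma and 1 had an unadjusted p under 0.05, with a median of −0.02. Over all 12499 genes 0.072% passed there, 11.8% had an unadjusted p under 0.05, 48.4% were lower and the median was 0.006, and the counts of the lists that follow stand beside the same shares. In experiment 2, where 0.216% of all genes passed, 1 of 9 passed, *Sdc4*, a cell surface heparan sulfate proteoglycan, which rose by 0.92 ± 0.19 log2 units (limma adjusted p = 0.0334). No gene of the 5 lists passed there on the deposited scale, with 75th percentile centring, with no filter, with 1 probe set per gene, fitted on experiment 2 alone, or without monotransgenic replicate 2, monotransgenic replicate 3 or bitransgenic replicate 3. The *Sdc4* difference was −0.01 on the diet against monotransgenic and 0.07 in set 3, with a mean of 0.39 ± 0.11 (adjusted p = 0.124). *Nrxn3* (0.29 ± 0.14, adjusted p = 0.433) and *Nrxn2* (0.24 ± 0.18, adjusted p = 0.634), presynaptic neurexins, had the next lowest p.

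Other leucine-rich synaptic adhesion genes had no call. Over the 3 sets 0 of 21 passed in limma, 5 had an unadjusted p under 0.05 (11.8% of all genes) and 15 were lower (48.4% of all genes), with a median of −0.06. *Lingo3*, a relative of the NgR co-receptor LINGO1, stood at 0.51 ± 0.16 (limma adjusted p = 0.161), *Lrrn3* at −0.26 ± 0.10 (adjusted p = 0.280) and *Flrt3* at −0.31 ± 0.13 (adjusted p = 0.335). Of 23 excitatory postsynaptic genes 0 passed over the 3 sets, 1 had an unadjusted p under 0.05 (11.8% of all genes) and 14 were lower (48.4%), with a median of −0.07. *Cacng8*, an AMPA receptor auxiliary subunit (0.32 ± 0.15), and the scaffold genes *Shank3* (−0.30 ± 0.15) and *Homer1* (0.19 ± 0.10) had the lowest p, with limma adjusted p of 0.397 to 0.461.

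Partners of *Ctnna2* were read from 16 genes of the cadherin-catenin complex. Over the 3 sets 0 passed in limma, 2 had an unadjusted p under 0.05 (11.8% of all genes), 8 were higher and 8 lower, and the median was −0.0049. *Cdh13*, a cadherin held by a lipid anchor, stood at −0.77 ± 0.22 (limma adjusted p = 0.133), *Ctnnal1*, an alpha-catenin relative, at 0.58 ± 0.16 (adjusted p = 0.118) and *Cdh9*, a synaptic cadherin, at 0.28 ± 0.14 (adjusted p = 0.445).

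Along chromosome 6, the 12 protein-coding genes on each side of *Lrrtm1*, members left out, gave 11 of 24 above the filter. Over the 3 sets 0 passed in limma, 3 had an unadjusted p under 0.05 (11.8% of all genes), 6 were higher and 5 lower, and the median was 0.0036. *Tmsb10*, an actin-sequestering thymosin, stood at −1.16 ± 0.27 (limma adjusted p = 0.0794), *Gcfc2* at −0.25 ± 0.10 and *Pole4* at 0.26 ± 0.10. The *Tmsb10* difference was −0.76 ± 0.47 on the diet against monotransgenic mice. *Lrrtm1* had the highest difference of the 14 genes measured on this stretch, which is the value it was chosen for, and its nearest measured neighbours *Ctnna2* (−0.65) and *Lrrtm4* (−0.08) were not higher.

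**Figure D5:**
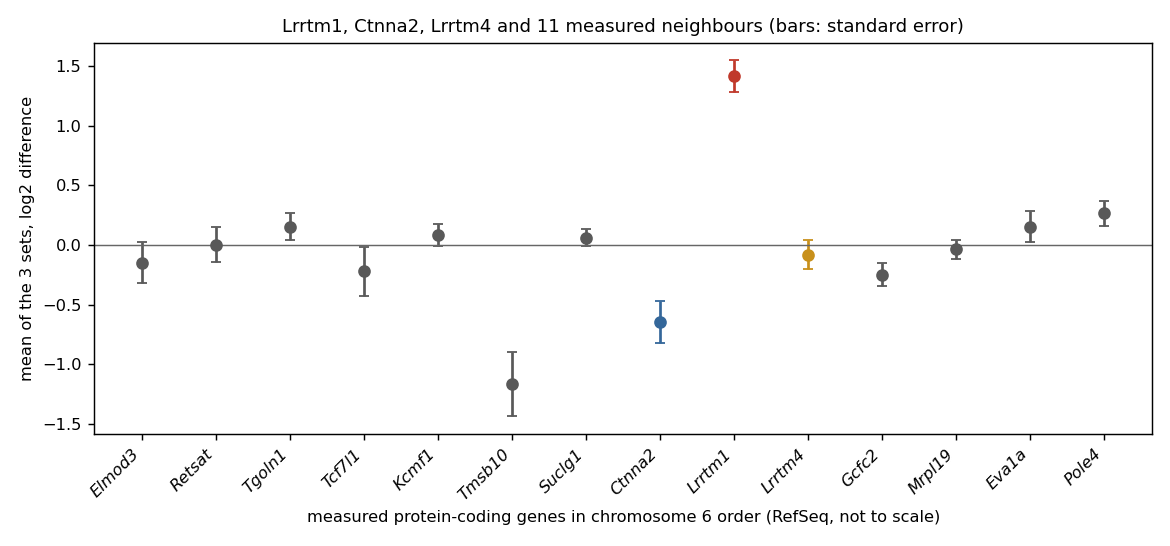
Mean over the 3 sets of the bitransgenic minus monotransgenic log2 difference (point) with its standard error (bar) for *Lrrtm1*, *Ctnna2*, *Lrrtm4* and 11 neighbours above the filter, in the order of the chromosome and not to scale. *Lrrtm1* stands at 1.41, *Ctnna2* at −0.65 and *Tmsb10* at −1.16, and the other 10 neighbours lie between −0.25 and 0.26.

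By likeness over the 21 arrays (Pearson r with set means taken off, 12494 genes, a description that the group differences set in large part), *Rtn4r* came first for *Lrrtm1* at 0.79, then *Dhrs1* and *Zfp60* (0.75 each), *Reep5* (0.74), *Cfap20dc* (0.73) and *Slpi* (0.72). The lowest were *Apool* (−0.80), *Pfdn2* (−0.78) and *Dolpp1* (−0.74). Apart from *Rtn4r* their mean differences over the 3 sets ran from −0.33 to 0.38. *Lrrtm1* itself had r of 0.59 with *Lrrtm2*, −0.29 with *Lrrtm3*, −0.02 with *Lrrtm4* and −0.65 with *Ctnna2*. The genes most like *Lrrtm2* were *Cdo1*, *Zfp868* and *Uhrf1bp1l* (0.80 each). For *Lrrtm3* they were *Mme* (0.87), *Stc1* (0.83) and *Ntng1* (0.82), for *Lrrtm4* *Pstk* (0.75), *Hspa9* and *Nfatc1* (0.73 each), and for *Ctnna2* *Htr7* (0.84), *Zcchc7* (0.75) and *Tmem47* (0.74).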

How the data were processed

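Probe sets of 21 Affymetrix mouse arrays were read from the value matrix as deposited, whose values are linear intensities. A scaling before deposit is inferred from the values: after the lowest and highest 2% of probe sets of an array are left out, the mean is 150. No source used here names the tool. Gene symbols came from the platform annotation, updated by Entrez ID (34945 probe sets had 1 symbol, 932 several, 9160 none; 64 controls were left out).

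Values were taken as log2(value + 16) and quantile normalized, because array medians spread by 0.30, over a limit of 0.25. The 27022 probe sets in the upper 60% by mean (log2 of 4.90 or more) entered 1 limma fit (limma 3.58.1, R 4.3.3) with a coefficient for each of 7 groups, 14 residual degrees of freedom and a variance trend. Tests were two-sided with Benjamini-Hochberg adjustment over all 27022, threshold 0.05. Intensities are as deposited, with SDs; log2 differences carry the fit's standard errors. With 3 arrays a group precision is limited: on simulated data with 50 probe sets changed at each size, changes of 1 log2 unit were recovered at 54% in experiment 2, 58% in diet minus monotransgenic and 96% over the 3 sets. The simulation also held changes of 0.5, 1.5 and 2 log2 units, while 84, 1 and 19 probe sets passed in the measured data. With fewer passing, the adjustment asks for a lower unadjusted p, so these shares can be too high for the measured data. *Tmsb10*, at −1.16 over the 3 sets, did not pass (limma adjusted p = 0.0794). Means over the 3 sets of *Lrrtm2*, *Lrrtm3*, *Lrrtm4* and *Ctnna2*, each on its probe set of highest mean, were also tested by exact permutation. Those p-values are not adjusted.

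The members and lists were chosen with earlier results of these data known. Removed minus diet, diet minus monotransgenic and the differences between sets had been planned as tests of *Lrrtm1*. They are given without p, since they share arrays with the comparisons that chose it. Genes were named by rule: the members, *Rtn4r*, up to 3 genes of lowest p per list over the 3 sets plus any that passed, and for likeness the 6 highest and 3 lowest for *Lrrtm1* and the 3 highest for the others. *Ctnna1*, *Ctnna3* and *Ogn* were added after values were seen. Promoters are from RefSeq, found for 4 of the 5 genes used here. Figures used matplotlib 3.10.9 in Python 3.11.15. Alternatives were pseudocounts of 1 and 64, the deposited scale, 75th percentile centring, no filter, the upper 40%, 1 probe set per gene, fits on a set alone, array weights, each set left out, the 2 arrays of highest actin ratio left out, the title prefix as a block, a threshold of 0.1 and each array left out.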

Additional observations from a re-analysis of the deposited data

How the results depend on the processing

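For *Lrrtm1* every bitransgenic minus monotransgenic difference and every removed minus diet difference stayed above 0 under all alternatives run. On 1455883_a_at removed minus diet was 1.11 fitted on set 1 alone and 1.13 with array weights. Fitted on set 1 alone *Ctnna2* passed in removed (−1.16) and diet (−0.90) minus monotransgenic, and with array weights in the first (−1.16, adjusted p = 0.0291, range 0.000646 to 0.645). With array weights *Lrrtm2* 1455489_at passed over the 3 sets (0.31, adjusted p = 0.0331, range 0.0331 to 0.513). Counts of the 10 other probe sets that passed were 1 in diet and 1 in removed minus monotransgenic fitted on set 1 alone. With array weights they were 1 in removed minus monotransgenic and 2 over the 3 sets. Without monotransgenic replicate 2 or 3 of experiment 2 the count over the 3 sets was 1, and counts were 0 otherwise. The cause was not tested.

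Small differences changed sign. *Lrrtm4* 1455937_at in experiment 2 and over the 3 sets was 0.051 and 0.0076 with 75th percentile centring, and 0.043 over 2 sets without set 1. *Lrrtm4* 1437214_at was −0.073 and −0.15 with array weights in experiment 2 and over the 3 sets, −0.17 without experiment 2 and −0.035 without the 2 arrays of highest actin ratio. *Lrrtm2* 1437787_at in experiment 2 was 0.014 with 75th percentile centring, and *Lrrtm3* 1440112_at in removed minus diet was 0.040 with a pseudocount of 1. The call of *Sdc4* in experiment 2, the 1 call among the 5 lists, left a count of 0 with the deposited scale, 75th percentile centring, no filter, 1 probe set per gene and the set alone. The lists had counts of 1, 1 and 4 in removed minus diet, diet minus monotransgenic and over the 3 sets with array weights, of 2, 1 and 2 in removed minus diet, diet minus monotransgenic and removed minus monotransgenic fitted on the set alone, and of 1 over the 3 sets at a threshold of 0.1.

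Leaving out each array in turn gave ranges of −0.36 to 0.03 (experiment 2) and −0.75 to 0.0092 (removed minus diet) for *Lrrtm3* 1434759_at, −0.20 to 0.12 and −0.32 to 0.27 for 1440112_at, −0.33 to 0.22 for *Lrrtm2* 1437787_at in experiment 2, and −0.42 to 0.059 (experiment 2) and −0.033 to 0.36 (removed minus diet) for *Lrrtm4* 1455937_at. For *Lrrtm4* 1437214_at they were −0.21 to 0.041 (removed minus monotransgenic) and −0.08 to 0.10 over the 3 sets, and for *Ctnna2* −0.80 to −0.55 over the 3 sets. The counts ran from 0 to 1 for the 10 probe sets over the 3 sets (1 without monotransgenic replicate 2 or 3 of experiment 2), and for the lists from 0 to 5 in experiment 2 (5 without monotransgenic replicate 1), 0 to 2 in set 3 and 0 to 3 over the 3 sets (2 and 3 without monotransgenic replicate 2 of set 3). Where an arm was left with 2 arrays it shared the spread of the others. Over all alternatives the count of all probe sets past the threshold ran from 0 to 1087 in experiment 2, 4 to 1027 over the 3 sets, 0 to 417 in removed and 0 to 33 in diet minus monotransgenic, 0 to 114 in removed minus diet and 0 to 80 in set 3, against 84, 19, 9, 1, 5 and 0. No paired analysis was possible because, in set 1 and experiment 2, the groups compared share no sample numbers and replicates were numbered in accession order. In set 3, where 2 pairs share a title prefix, the prefix as a block rests the differences on those 2 pairs. The block left 0 of the 10 probe sets past the threshold and turned no direction of the bright probe sets. Groups of 3 arrays and dim probe sets limit every comparison.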
